A study of Mus musculus with 18 samples.

Results

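The genes described here encode secreted proteins of the gut lining that act on bacteria or belong to the same families as such proteins: the regenerating (Reg) lectins Reg3a, Reg3b, Reg3g and Reg4, the resistin-like protein Retnlb and the angiogenin Ang4. They were chosen by symbol, and every probe on the array that carries one of these symbols was taken as a member of its own. This gave 7 probes of 6 genes among 45281 probes, 2 of them for Reg3b and 1 for each other gene, and 7 of the 7 passed the filter on dim probes together with 21938 probes in all. The measurements are messenger RNA signals on Illumina MouseWG-6 arrays, on which a transcript is read by beads that carry a probe of 50 bases. The RNA was that of epithelium of the colon, purified on a flow cytometer by the epithelial surface protein EpCAM and by the absence of surface markers of blood cells, T cells and macrophages. The mice were wild type (WT) or lacked Mbd2, a protein that binds methylated DNA, in all cells (Mbd2KO). Both genotypes were on the C57BL/6 background, the study describes them as littermates kept in shared cages, and it used adult mice matched for age and sex. The 4 groups were untreated WT (Naive_WT), untreated Mbd2KO (Naive_KO), WT given 2% dextran sulphate sodium in the drinking water (DSS_WT) and Mbd2KO given the same (DSS_KO). DSS is a polymer that injures the colon lining and causes colitis. Each group had 4 samples. A sample may pool the RNA of several mice from separate experiments, and the sources used here differ on the range and do not say which mice or experiment each sample holds, so p-values measure the spread between these samples.

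Reg3b and Reg3g are C-type lectins that enterocytes secrete into the mucus, where Reg3g binds peptidoglycan of Gram-positive bacteria and helps to keep bacteria away from the epithelial surface. Their transcription in the gut is known to rise with bacterial contact and injury, through IL-22, Stat3 and Toll-like receptor signalling through MyD88. Reg3a is a close relative of both. Reg4 is a more distant member of the family that is expressed by secretory cells of the colon. Retnlb (RELM-beta) is made by goblet cells, and type 2 cytokines and bacterial colonisation are known to induce it. Ang4 is a ribonuclease with bactericidal activity, first described in Paneth cells and also made by goblet cells. In bulk RNA such as this, a change in the number of cells that express a gene and a change in RNA per cell cannot be told apart.

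The probe sequences below, from the deposited table, show which stretch of each transcript was read and how far the probes of related genes resemble each other. The Reg3b probes are called bright and dim after their mean signal. Capitals mark a run of 16 identical bases that the dim Reg3b probe and the Reg3g probe share, whereas no other pair of member probes shared a run longer than 9 bases.
Reg3b bright probe: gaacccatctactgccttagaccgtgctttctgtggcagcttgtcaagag
Reg3b dim probe: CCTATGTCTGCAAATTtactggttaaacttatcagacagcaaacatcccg
Reg3g probe: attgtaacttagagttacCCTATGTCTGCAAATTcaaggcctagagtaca
Retnlb probe: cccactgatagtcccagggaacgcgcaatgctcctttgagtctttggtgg
Ang4 probe: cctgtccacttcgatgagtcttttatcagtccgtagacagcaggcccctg
Whether the dim Reg3b probe also captured Reg3g RNA was not tested, and its values are therefore given beside those of Reg3g and not as a second measure of Reg3b alone.

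Reg3b, Reg3a and Reg3g lie in 1 cluster on chromosome 6, where the RefSeq table of assembly GRCm38.p6 also places Reg3d, Reg2 and Reg1 between them. Reg4 lies on chromosome 3, Retnlb on chromosome 16 and Ang4 on chromosome 14. Reg3b and Reg3g moved together in the results below, so the 250 bases before their RefSeq start sites (GRCm38.p6) are shown, each 5′ to 3′ on the strand of its gene. Capitals mark matches to TTCNNNGAA, the palindrome bound by Stat factors such as Stat3.
Reg3b, chr6:78370635-78370884, plus strand: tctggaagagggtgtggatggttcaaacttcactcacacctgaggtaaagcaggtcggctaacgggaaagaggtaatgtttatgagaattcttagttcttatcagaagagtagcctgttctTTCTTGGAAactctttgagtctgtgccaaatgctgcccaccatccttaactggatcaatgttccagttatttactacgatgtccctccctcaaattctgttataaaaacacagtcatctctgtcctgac
Reg3g, chr6:78468875-78469124, minus strand: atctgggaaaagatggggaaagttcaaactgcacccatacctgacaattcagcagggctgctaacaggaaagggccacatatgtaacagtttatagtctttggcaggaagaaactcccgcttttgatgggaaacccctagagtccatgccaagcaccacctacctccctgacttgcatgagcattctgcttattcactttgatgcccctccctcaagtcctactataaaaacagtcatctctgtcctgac
In a global alignment of these stretches 173 of 247 aligned bases were identical (70.0%). The other pairs among the 5 members with a promoter entry had fewer aligned bases, 195 to 216, of which 60.2% to 71.9% were identical, so the share of identical bases did not set this pair apart. Windows of 300 bases, 250 before the start site and 50 after it, were searched on both strands for 3 motifs. TTCNNNGAA stood in 8.3% of all 32851 windows, and among the members it stood at -129 in Reg3b, as TTCTTGGAA, and at -192 in Ang4, as TTCCCTGAA. TATAAA stood in 13.6% of all windows, in Reg3b at -29 and in Reg3g at -27 and, on the other strand, at -161. TTCNNNNGAA, the spacing preferred by Stat6, stood in 6.95% of all windows and in no member window. The motifs did not overlap each other in these windows, and a match is a match of letters only. Retnlb had no entry.

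The arrays were alike in the share of probes detected (detection p-value under 0.05), 41.6% to 45.5% of all probes. The median signal was 106 to 120 intensity units on the naive arrays, with a mean of 101 to 111 for the negative controls. On the DSS arrays it was 110 to 146, with a mean of 103 to 134 for the negative controls. Apart from 5R, every DSS array lay above every naive array in both. All values below are log2 signals after background correction and quantile normalization. The single Mbd2 probe was detected on 0 of 18 arrays, with levels of 4.31 to 4.68 over all samples, so the genotype labels could not be checked and were taken as given. Of 11 epithelial markers, 11 were detected on all arrays. A probe was called at an adjusted p under 0.01 and a log2 fold change of at least 1 in limma.

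Reg3g rose with DSS in both genotypes. In the Naive_WT samples its level was 6.89, 7.00, 9.13 and 6.82, and in the DSS_WT samples it was 11.90, 10.88, 12.40 and 12.42. Every DSS_WT sample was above every Naive_WT sample, and replicate 11 stood apart at the top of the naive group. The difference was 4.44 on the log2 scale, a 21.7-fold rise (SE 0.551, limma adjusted p = 0.000318). In Mbd2KO the level went from 11.69, 9.65, 9.40 and 9.27 in Naive_KO to 13.70, 13.11, 12.54 and 13.50 in DSS_KO. These groups were also apart, and the rise of 3.21 was 9.29-fold (SE 0.551, limma adjusted p = 0.00220).

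The bright Reg3b probe showed the same direction in WT. Its Naive_WT levels were 9.82, 9.51, 11.92 and 9.36 and its DSS_WT levels were 14.53, 13.76, 14.56 and 14.51, without overlap, a rise of 4.19 (SE 0.479, limma adjusted p = 0.000245). No fold is given, since the DSS_WT signals lay near the top of the array's range. In Naive_KO its levels were 14.45, 12.67, 13.08 and 12.35, and in DSS_KO they were 14.46, 14.26, 14.77 and 14.18. Here replicate 13 of Naive_KO reached the DSS_KO range, and the difference of 1.28 did not pass the test (95% interval 0.26 to 2.29, limma adjusted p = 0.105).

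The dim Reg3b probe was detected on 3 of 4 Naive_WT arrays. Its levels were 5.05, 4.93, 7.29 and 4.84 in Naive_WT and 10.08, 8.82, 10.40 and 10.88 in DSS_WT, a rise of 4.52 (SE 0.618, limma adjusted p = 0.000477). In Mbd2KO they were 9.46, 6.92, 7.61 and 6.76 in Naive_KO and 12.10, 11.80, 10.63 and 12.06 in DSS_KO, a rise of 3.96 (SE 0.618, limma adjusted p = 0.00114). The groups were apart in both genotypes. As for Reg3g, replicates 11 and 13 were at the top of their naive groups.

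Reg3a was read close to background. On the 4 Naive_WT arrays it was not above background (0 of 4 detected), with levels of 4.29, 4.54, 4.85 and 4.72 that are only an upper bound. In DSS_WT it was detected on all arrays, at 6.66, 5.90, 6.32 and 6.57, which was at least 2.76-fold higher (limma adjusted p = 0.000464). In Naive_KO the levels were 5.88, 5.16, 5.31 and 5.01, and in DSS_KO they were 7.71, 6.81, 6.56 and 7.17, again without overlap, with a rise of 1.72 (3.30-fold, SE 0.240, limma adjusted p = 0.000599). DSS_KO was at least 4.48-fold above Naive_WT.

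**Figure D1:**
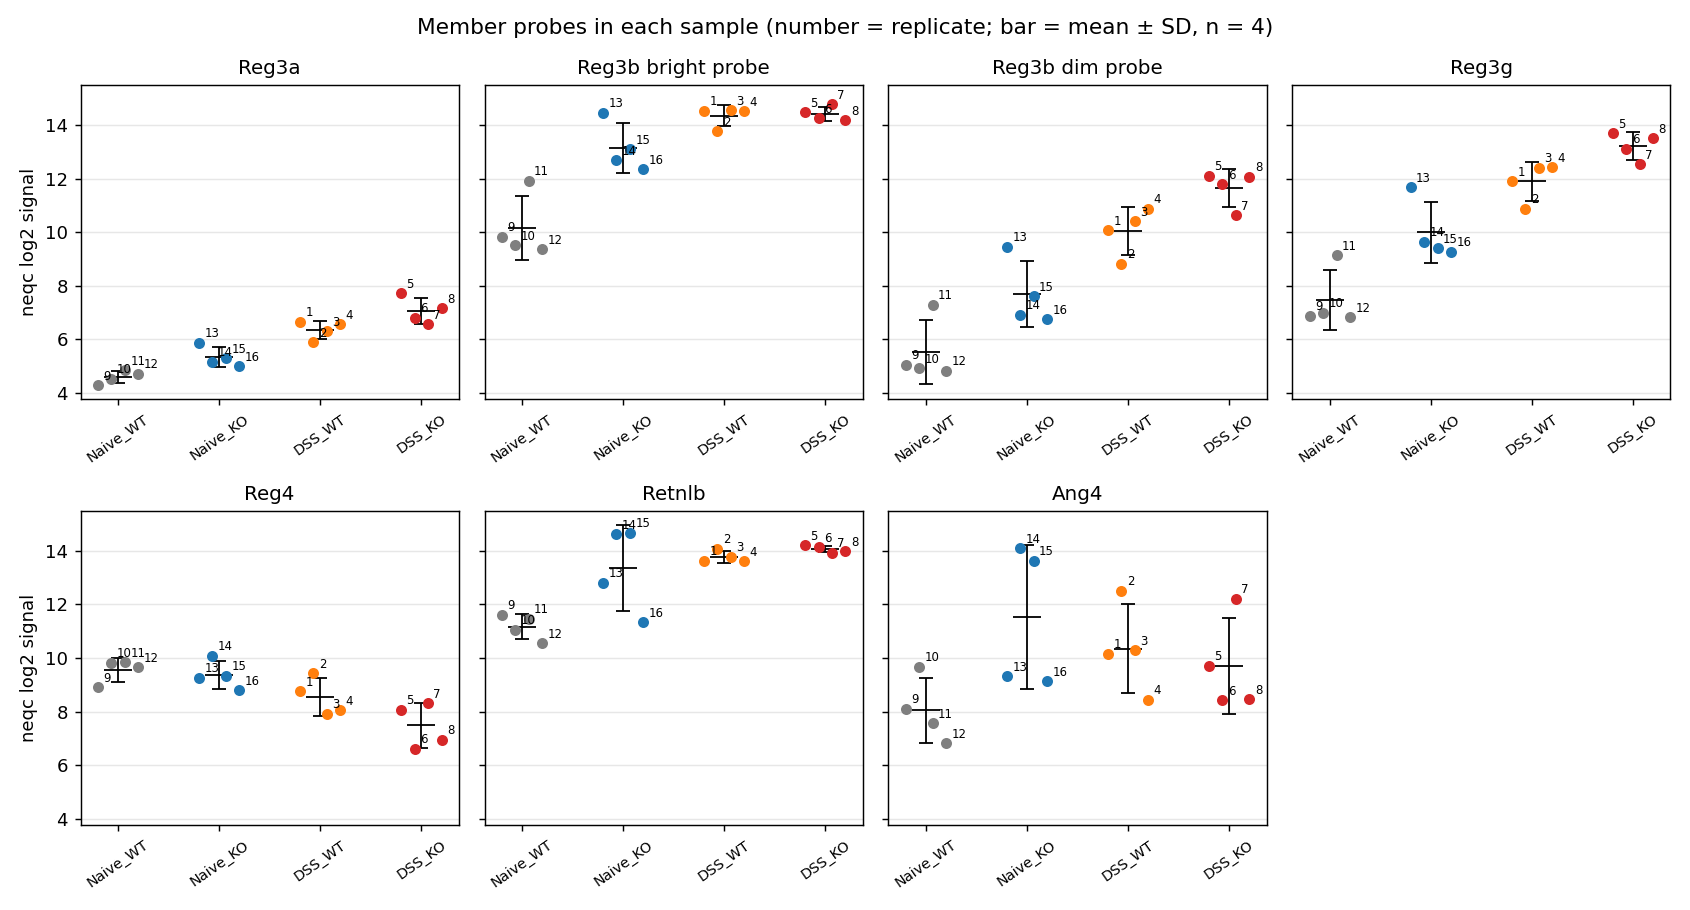
Normalized log2 signal (y axis) of each member probe in every sample, with the group on the x axis, the replicate number beside each point and a black bar for the mean with 1 SD (n = 4 per group). The 3 Reg3 genes climb from Naive_WT to DSS_KO, except that the bright Reg3b probe is about level between DSS_WT and DSS_KO. Reg4 lies lowest in DSS_KO, and Retnlb and Ang4 spread most in Naive_KO, where replicates 14 and 15 stand at the top.

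Counted over all members, 5 of 7 probes were called in DSS_WT against Naive_WT, all higher: the 4 Reg3 probes and Retnlb. Among all tested probes 1.74% were called in that comparison. The same 5 probes had groups that did not overlap, against 17% of all tested probes. In DSS_KO against Naive_KO, 4 of 7 probes were called, with Reg3a, the dim Reg3b probe and Reg3g higher and Reg4 lower. The share among all tested probes was 1.72%. These 4 probes also had groups that did not overlap, against 15.9% of all tested probes. Without DSS_KO replicate 5 or without Naive_KO replicate 14, 2 of 7 were called, because Reg4 (adjusted p = 0.0107 and 0.0297 in limma) missed the threshold and Reg3g lay just above it in both fits. Expression of Reg1, which lies in the same cluster on chromosome 6, rose by 1.94 in WT (SE 0.233, limma adjusted p = 0.000287, detected on 1 of 4 Naive_WT arrays) and by 1.48 in Mbd2KO (SE 0.233, limma adjusted p = 0.00121). It was the only one of 9 tested other Reg, resistin-like and angiogenin genes that was called in the genotype or DSS comparisons or the interaction. The median change of these 9 genes with DSS was 0.25 in WT and 0.16 in Mbd2KO, against 0.01 and -0.01 over all genes tested.

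Without DSS, Reg3b was higher in Mbd2KO than in WT at its bright probe. This probe, whose levels are given above, was 2.99 higher in Naive_KO (SE 0.479, limma adjusted p = 0.00229), with 4 of 4 Naive_KO samples above every Naive_WT sample. It was the only member called, 1 of 7 probes, against 0.656% of all tested probes. Reg3g was 2.54 higher (95% interval 1.37 to 3.70) with an adjusted p of 0.0159 in limma, which misses the threshold, although its groups did not overlap. The dim Reg3b probe was 2.16 higher with an adjusted p of 0.0529 in limma, and here replicate 11 of Naive_WT lay inside the Naive_KO range. Reg3a was at least 1.36-fold higher, with an adjusted p of 0.0801 in limma. The groups were apart for 3 of 7 probes (Reg3a, the bright Reg3b probe and Reg3g), against 12.3% of all tested probes. Without Naive_WT replicate 11 Reg3g was called as well, at 3.10 (limma adjusted p = 0.00347). Without Naive_KO replicate 16 Retnlb was called beside Reg3b, as given below. Without Naive_WT replicate 10 no member was called, because the bright Reg3b probe had an adjusted p of 0.0126 in limma at a difference of 2.77, and with only the groups of the contrast in the fit the adjusted p of the bright probe was 0.0362 in limma.

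With DSS, no member differed between the genotypes past the threshold. In DSS_KO against DSS_WT 0 of 7 probes were called by limma, against 0.862% of all tested probes. An unadjusted p under 0.05 in limma was found for 4 of 7, against 4862 of 21938 tested probes. Reg3g was 1.31 higher in DSS_KO (95% interval 0.15 to 2.48, adjusted p = 0.168 in limma), and its groups did not overlap. It was the only such member, against 14.7% of all tested probes. The dim Reg3b probe was 1.61 higher (95% interval 0.30 to 2.91, adjusted p = 0.134 in limma), Reg3a was 0.70 higher (95% interval 0.19 to 1.21, adjusted p = 0.0945 in limma), and the bright Reg3b probe differed by 0.08 (95% interval -0.94 to 1.09). For the interaction, which asks whether the genotype difference changed with DSS, 0 of 7 members and 0% of all tested probes were called in limma. An unadjusted p under 0.05 was found there for 3 of 7 members, against 2339 of 21938 tested probes. The bright Reg3b probe had an interaction of -2.91 (95% interval -4.34 to -1.48, limma adjusted p = 0.199), with both DSS groups near the top of the array's range, while the dim one had -0.55 (95% interval -2.40 to 1.29).

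**Figure D2:**
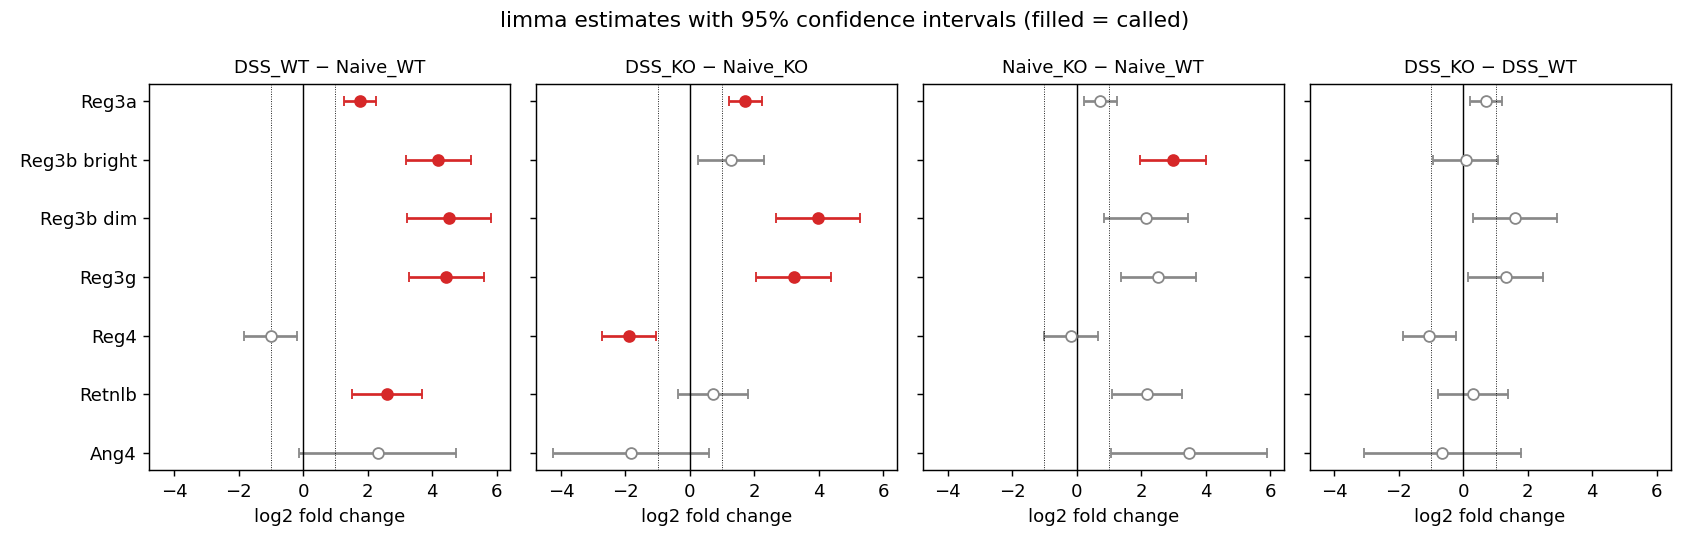
Log2 fold change (x axis) of each member probe (y axis) in 4 comparisons, as points with 95% confidence intervals from limma, filled where the probe was called, with dotted lines at 1 and -1. The intervals of the Reg3 probes lie above 0 in both DSS comparisons, 1 probe is filled for the genotypes without DSS, and none with DSS.

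The bright and dim Reg3b probes parted at high signal. In DSS samples the raw signal of the bright probe was 52.0% to 93.2% of the brightest probe on the same array, whereas that of the dim probe was 1.99% to 17.5%. In the 8 samples where the dim probe exceeded a level of 9, the bright probe spanned only 0.59 (14.18 to 14.77). Over these samples the dim probe spanned 2.65 and Reg3g spanned 2.01. In the other 8 samples the bright probe spanned 4.40 and the dim probe 3.98. Above that level the bright probe did not order the samples as the dim probe and Reg3g did, and each of its differences that includes a DSS group, the interaction among them, was read at signals near the top of the array's range. Naive_KO replicate 13, the highest of its group at 56.7% of the brightest probe, was also among the 8 samples, so part of the difference between the naive groups was read there too. Whether the probe could have read a larger difference there was not tested. Within groups (deviations from the group means, 16 samples) the dim probe and Reg3g had a Pearson r of 0.97, the bright probe and Reg3g 0.86, and Reg3a and Reg3g 0.74, as a description of samples that share arrays and RNA.

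**Figure D3:**
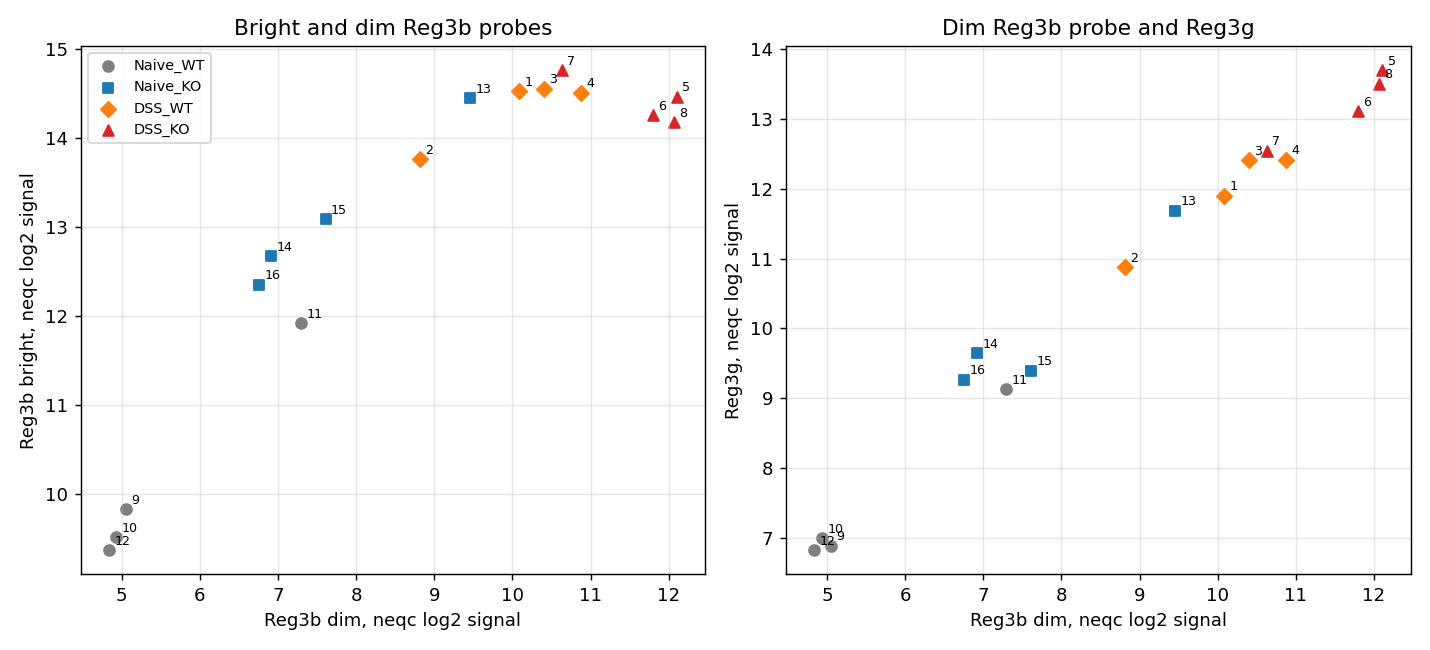
Log2 signal of the dim Reg3b probe (x axes) against that of the bright Reg3b probe (left) and of Reg3g (right), 1 point per sample with its replicate number, marked by group. On the left the points flatten between 14.18 and 14.77 while the dim probe still spreads over 2.65, and on the right they keep rising.

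The order of the 4 group means was the same for the Reg3 genes: Naive_WT lowest, then Naive_KO, DSS_WT and DSS_KO. Not all of these steps were larger than the spread between samples. For Reg3a the step from Naive_KO to DSS_WT was 1.02 (limma adjusted p = 0.0093), while the steps on either side of it did not pass the test. For the bright Reg3b probe only the step from Naive_WT to Naive_KO passed. Its last step, from DSS_WT to DSS_KO, was 0.08 (limma adjusted p = 0.948) and changed sign in 3 of 27 other settings, so these 2 groups have no clear order at this probe. For Reg3g none of the 3 steps passed at 0.01, with adjusted p-values of 0.0159, 0.0265 and 0.168 in limma, while the whole distance from Naive_WT to DSS_KO was 5.75 (53.9-fold, SE 0.551).

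Reg4 went the other way. Its levels were 8.90, 9.82, 9.84 and 9.64 in Naive_WT and 8.76, 9.43, 7.91 and 8.04 in DSS_WT, overlapping groups with a difference of -1.01 (95% interval -1.84 to -0.18, limma adjusted p = 0.110). In Mbd2KO it fell from 9.26, 10.08, 9.33 and 8.80 in Naive_KO to 8.07, 6.61, 8.30 and 6.95 in DSS_KO. The groups were apart, with a change of -1.88 (3.69-fold lower, SE 0.394, limma adjusted p = 0.00736). This call was lost in 7 of the 16 fits that left out 1 sample, with adjusted p-values up to 0.0313, and in limma with no filter on dim probes (0.0216), with only the groups of the contrast (0.0161) and without background correction (0.0122). Between the genotypes Reg4 differed by -0.18 without DSS (95% interval -1.01 to 0.65) and by -1.05 with DSS (95% interval -1.88 to -0.22, limma adjusted p = 0.124). The interaction of -0.87 (95% interval -2.05 to 0.30) did not pass the test, so a larger fall in Mbd2KO was not shown.

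Retnlb rose with DSS in WT. Its levels were 11.61, 11.06, 11.46 and 10.55 in Naive_WT and 13.63, 14.07, 13.77 and 13.60 in DSS_WT, a difference of 2.60 without overlap (SE 0.513, limma adjusted p = 0.00467). The adjusted p was between 0.0133 and 0.0192 without any one of the DSS_WT replicates 2, 3 and 4 and the Naive_WT replicates 10 and 12, and was 0.0159 with no filter on dim probes, which misses the threshold. The DSS_KO samples were close together at 14.21, 14.13, 13.93 and 13.99. The Naive_KO samples were the most spread, at 12.80, 14.61, 14.67 and 11.33: replicates 14 and 15 exceeded every DSS sample, while replicate 16 lay within the Naive_WT range. DSS_KO against Naive_KO gave 0.71 (95% interval -0.37 to 1.79, limma adjusted p = 0.423), which ranged from 0.0352 without Naive_KO replicate 16 to 1.13 and 1.15 without replicates 14 and 15, uncalled in each. Naive_KO against Naive_WT gave 2.19 (SE 0.513, limma adjusted p = 0.0227). Without Naive_KO replicate 16 the latter was 2.86 and was called (limma adjusted p = 0.000243). Its raw signal reached 80.5% of the brightest probe on the array in Naive_KO and 68.2% in DSS_KO and was 48.4% to 64.4% of it in DSS_WT, so Retnlb too was read near the top of the range in part of the samples.

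Ang4 varied more between samples of a group than any other member. In Naive_WT its levels were 8.11, 9.67, 7.57 and 6.82, and in Naive_KO they were 9.31, 14.08, 13.63 and 9.13. Replicates 14 and 15, the samples that were also high in Retnlb, were above every other sample of the series, and the other 2 Naive_KO samples lay within the Naive_WT range. In DSS_WT the levels were 10.15, 12.50, 10.29 and 8.45 and in DSS_KO 9.71, 8.42, 12.21 and 8.46, with replicates 2 and 7 at the top of their groups. None of the comparisons passed the test. The difference was 3.49 for Naive_KO against Naive_WT (95% interval 1.07 to 5.92, limma adjusted p = 0.0840), 2.31 for DSS_WT against Naive_WT (95% interval -0.12 to 4.73) and -1.84 for DSS_KO against Naive_KO (95% interval -4.26 to 0.59). The SD in Naive_KO was 2.68.

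**Figure D4:**
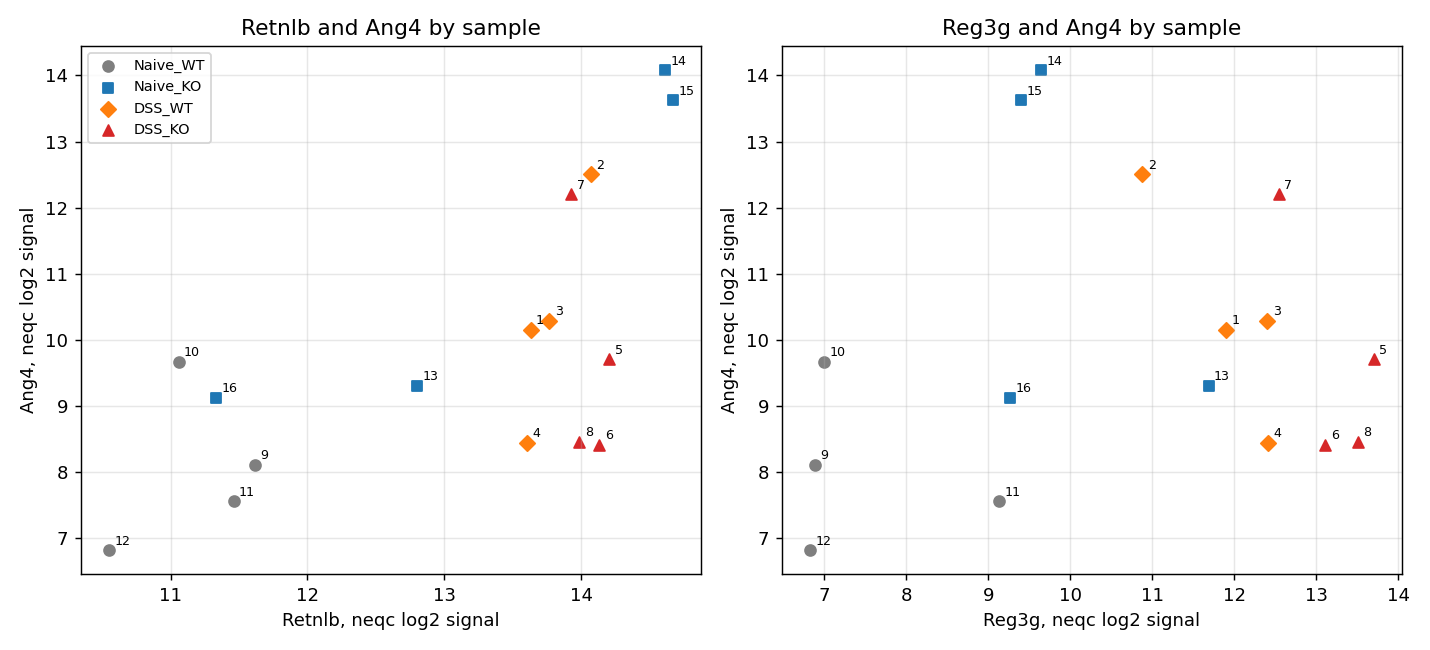
Log2 signal of Ang4 (y axes) against Retnlb (left) and Reg3g (right), 1 point per sample with its replicate number, marked by group. Naive_KO replicates 14 and 15 lie at the top for Ang4 and Retnlb but not for Reg3g, and replicate 13, which is highest of its group for Reg3g, lies low for Ang4.

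Within Naive_KO, the samples that were highest in Ang4 and Retnlb were not the one that was highest in the Reg3 genes. Replicate 13 had the highest Reg3a, Reg3b and Reg3g of its group, and replicates 14 and 15 the highest Ang4 and Retnlb. Within groups (deviations from the group means, 16 samples) the Pearson r was 0.68 between Retnlb and Ang4, 0.69 between Reg4 and Ang4, -0.03 between Reg3g and Retnlb and -0.48 between Reg3g and Ang4. Each rests on few samples per group and is given as a description.

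By the rule of the highest Pearson r over the 16 samples, with group differences included and 1 probe per gene, the genes most like Reg3g were Lgals9, a lectin of the galectin family (0.98), Eif4e3 (0.96) and Lyz2, a lysozyme of macrophages (0.96). For Reg3a they were Slc5a9 (0.96), Lrg1, a known Stat3 target (0.95), and Eif4e3 (0.95). For Reg3b at its bright probe they were the unnamed locus LOC100048554 (0.93), Ly6a (0.93) and Slc5a9 (0.92). For Reg4 they were Il11ra1, the receptor of IL-11 (0.96), LOC380998 (0.94) and the transcription factor Tfcp2l1 (0.94). The genes most like Retnlb were LOC677317 (0.94), Itgae (0.92) and Zfp296 (0.91). For Ang4 they were Itln1 (0.92) and Itlnb (0.90), intelectins of secretory cells, and LOC327803 (0.85), which was detected on 4 of 18 arrays. Itln1 and Itlnb are close copies whose probes may read each other. Itln1 had its highest levels in Naive_KO replicates 14 (8.94) and 15 (7.99), DSS_WT replicate 2 (8.20) and DSS_KO replicate 7 (7.65), which were also the 4 highest samples for Ang4.

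Other secreted antimicrobials moved with DSS in part. Of 24 tested genes of this list outside the members, 6 were called in DSS_WT against Naive_WT and 9 in DSS_KO against Naive_KO, all of them higher. The median change over the list was 0.80 in WT and 0.81 in Mbd2KO, against 0.01 and -0.01 over all genes tested. Defb37, a beta-defensin, rose by 1.94 in WT and 2.05 in Mbd2KO. Lyz2, which is also on the macrophage list, rose by 1.88 and 1.70, and Slpi, a secreted protease inhibitor with antibacterial activity, rose by 1.87 and 2.08. Duoxa2, which matures the hydrogen peroxide producing oxidase Duox2, rose by 1.81 in WT and 1.59 in Mbd2KO, where it just missed the threshold (limma adjusted p = 0.011). In Mbd2KO, and named after their values were seen, S100a9 rose at least 5.79-fold (detected on 0 of 4 Naive_KO arrays), S100a8 rose by 3.82 (detected on 1 of 4 Naive_KO arrays, so that the size is uncertain), and Lcn2, a protein that binds bacterial siderophores, rose by 2.41. In WT these genes were also higher with DSS but uncalled: S100a9 by 2.25, S100a8 by 2.82 and Lcn2 by 1.45 (limma adjusted p = 0.0295, 0.0173 and 0.0418). The Naive_WT means of S100a9 (4.56) and S100a8 (4.48) lay near background. Their interactions were not called (limma adjusted p = 0.789, 0.771 and 0.614), so a larger rise in Mbd2KO was not shown. S100a8 and S100a9 are also on the neutrophil list. Nos2, the inducible nitric oxide synthase, was the only gene of the list called between the genotypes, at least 1.91-fold higher in DSS_KO than in DSS_WT (limma adjusted p = 0.00301), where it was detected on 0 of 5 arrays. No gene of the list was called between the naive groups in limma (0 of 24, with 10 at an unadjusted p under 0.05, against 5010 of 21938 tested probes). The list's median difference there was 0.25 against -0.01 over all genes tested.

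**Figure D5:**
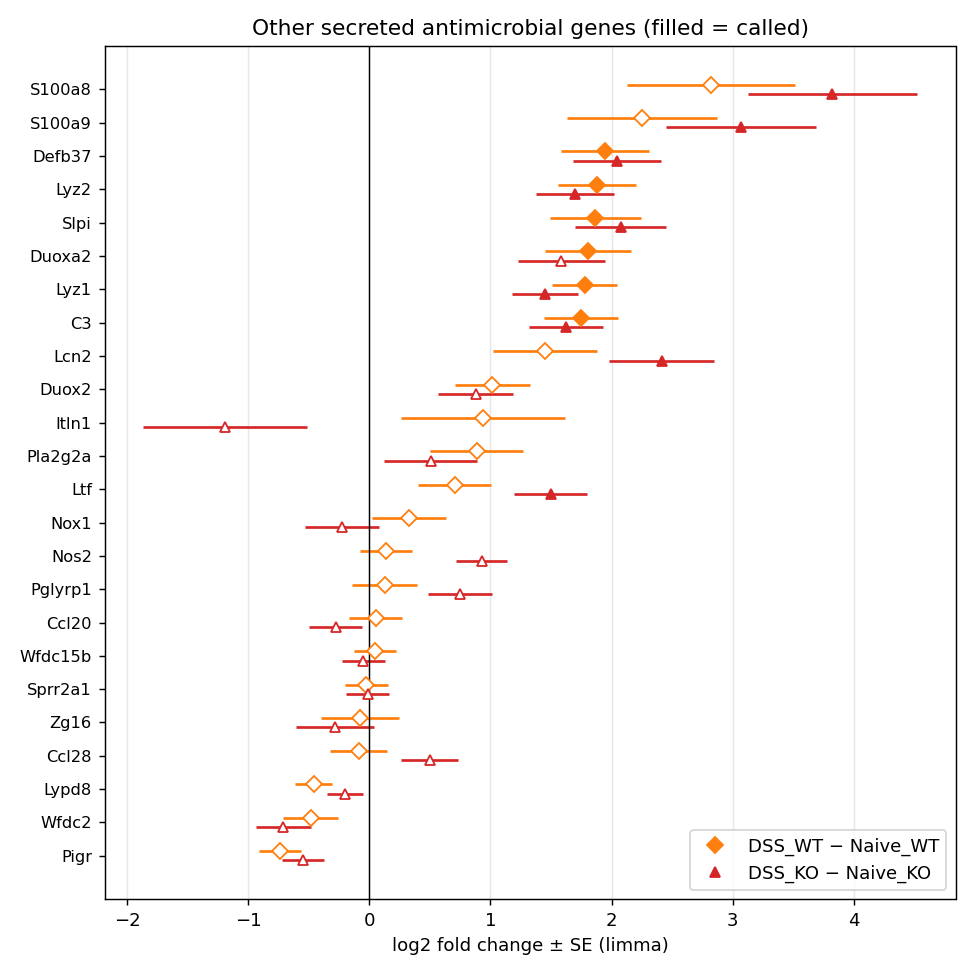
Log2 fold change with DSS (x axis, points with 1 SE from limma) of 24 other secreted antimicrobial genes (y axis) in WT (orange diamonds) and Mbd2KO (red triangles), filled where called. In WT 6 genes are filled and in Mbd2KO 9, all to the right of 0. S100a9 was detected on 0 of 4 Naive_KO arrays, so its point in Mbd2KO is measured from background, and most genes in the lower part of the plot lie near 0.

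The pathways known to drive Reg3 genes were read from their own members. Of 23 tested genes of the IL-22, IL-6 family and Stat3 pathway, 3 were called with DSS in WT and 4 in Mbd2KO, all higher. Lrg1 rose by 2.75 in WT and 3.68 in Mbd2KO, Saa3, an acute phase protein, rose by 2.74 and 2.87, and Osmr, the oncostatin M receptor, rose by 1.13 and 1.00. None of the 23 was called between genotypes by limma. Of them, 5 had an unadjusted p under 0.05 without DSS and 9 with it, against 5010 and 4862 of 21938 tested probes. The probe for Il22 itself was detected on 0 arrays. Of 25 tested genes of the Toll-like receptor and MyD88 pathway, 0 were called by limma in the genotype or DSS comparisons or the interaction. With DSS in WT, 13 had an unadjusted p under 0.05 in limma, against 5772 of 21938 tested probes. With DSS in Mbd2KO, 5 did, against 5377 of 21938. The median changes with DSS were 0.29 in WT and 0.20 in Mbd2KO. Of 14 tested genes of the type 2 cytokine and secretory cell program, 1 was called in the genotype or DSS comparisons or the interaction. Il33, an alarmin cytokine, was -1.49 in Naive_KO against Naive_WT (SE 0.273, limma adjusted p = 0.00621). Of 12 tested goblet cell markers, 0 were called by limma between the naive groups (3 at an unadjusted p under 0.05, against 5010 of 21938 tested probes). Their mean level was 12.30 to 12.79 in the Naive_KO samples and 12.24 to 12.70 in the Naive_WT samples. In DSS_KO against Naive_KO, the comparison in which Reg4 fell, 1 goblet marker was called (Ccl6, -1.01, limma adjusted p = 0.00384, named after its value was seen). There 5 of 12 had an unadjusted p under 0.05 in limma, against 5377 of 21938 tested probes. Clca3 (-1.80) and Clca1 (-1.78) did not pass the test, and the mean level of the list was 11.76 to 12.49 in the DSS_KO samples. The part of these markers in the fall of Reg4 was not tested.

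Markers of other cells moved with some of these comparisons. Of 8 tested monocyte and macrophage markers, 6 were higher with DSS in WT and 3 in Mbd2KO, Lyz2 among them, and the mean level of the list was 6.37 to 6.91 in Naive_WT, 6.57 to 7.49 in Naive_KO, 7.62 to 8.20 in DSS_WT and 8.06 to 8.18 in DSS_KO. Naive_KO replicate 13, the highest of its group for the Reg3 genes, was also the highest of its group for this list, and Naive_WT replicate 11 was likewise the highest of its group for both. Csf1r, Cd68 and Mrc1 were detected on 18 of 18 arrays and Adgre1 on 14, and these 4 were higher with DSS in WT by 1.31, 1.36, 1.35 and 1.51, whereas Itgam, Itgax and Ccr2 were detected on 0 arrays. Of 6 tested neutrophil markers, 3 (S100a8, S100a9 and Ltf) were called higher with DSS in Mbd2KO. In WT 0 were called by limma, with 4 at an unadjusted p under 0.05, against 5772 of 21938 tested probes. The mean level of the list was 4.61 to 4.76 in Naive_WT, 4.67 to 5.05 in Naive_KO, 5.47 to 6.53 in DSS_WT and 5.92 to 7.78 in DSS_KO, while Cxcr2, Ngp and Mmp8 were detected on 0 arrays. Of 8 tested markers of Paneth cells, which the colon normally lacks, Lyz1 rose with DSS in both genotypes (by 1.78 in WT and 1.45 in Mbd2KO) and Mmp7 was higher in DSS_KO than in Naive_KO (by 1.66) and DSS_WT (by 1.57). The list had mean levels of 5.56 to 5.84 in Naive_WT, 6.35 to 6.95 in Naive_KO, 6.15 to 7.06 in DSS_WT and 6.46 to 7.69 in DSS_KO. Smooth muscle and fibroblast markers were lower in DSS_KO than in DSS_WT for 3 of 11 tested genes (Tagln, Actg2 and Myh11), with mean levels of 7.74 to 8.58 against 9.00 to 9.56, and Pdgfra (1.38) and Lum (1.05) were higher in DSS_WT than in Naive_WT. Of 9 tested T and innate lymphoid cell genes, Gata3 was higher with DSS in Mbd2KO (at least 1.61-fold, detected on 0 of 4 Naive_KO arrays). Of 4 tested B and plasma cell genes, 0 were called by limma in the genotype or DSS comparisons or the interaction. In DSS_WT against Naive_WT 2 of them had an unadjusted p under 0.05 in limma, against 5772 of 21938 tested probes. Pancreatic acinar genes, which would mark carried-over pancreas, were not called by limma in the genotype or DSS comparisons or the interaction (5 tested). In DSS_KO against DSS_WT 4 of them had an unadjusted p under 0.05 in limma, against 4862 of 21938 tested probes. DSS_KO against Naive_WT was not run for this list. Prss2, Cpa1, Pnlip, Amy2 and Cel were detected on 0 arrays. The part of these markers in the differences of the members was not tested.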

How the data were processed

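Per the labels, total RNA of sorted colon epithelial cells was amplified, labelled and hybridised to 18 Illumina arrays, and the submitters' processing notes name lumi and limma. The deposited table holds, per probe and array, an intensity (mean bead signal, linear scale, not normalized per the file headers), a detection p-value, a bead standard error and a bead number, the last 2 used as a description only. Signals were background-corrected with 936 negative controls, brought to common quantiles and log2-transformed by the neqc function of limma 3.58.1 in R 4.3.3, with an offset of 16. Arrays 4R and 5R differed less from 4 and 5 (SD of the log2 differences 0.194 and 0.236) than any other pair of their groups and were averaged with them. The test took the 21938 probes that 4 or more arrays detected at a p-value under 0.05.

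One limma fit on 16 samples gave all comparisons (two-sided, Benjamini-Hochberg over all tested probes). For the named genes every member probe was taken, then the 3 genes most alike by Pearson r, then at most 4 genes per list with the largest changes among called probes in DSS_WT against Naive_WT and between the genotypes, beside list genes named for detection or behind small counts, which were chosen after their values were seen. The result of 1 list gene is not reported here. Genes of several probes were read at the brightest. Symbols were updated through Entrez identifiers with RefSeq (GRCm38.p6). The build of the deposited probe positions is not given in the sources used here, so none is printed. A bound for a probe detected on no array of a group uses, per array, the higher of its own level and the lowest level of any detected probe. The fit was tested on simulated data. The members and lists were chosen with earlier results of these data known. Alternatives to background correction, normalization, filter, samples, repeat arrays, weights and threshold were run. The number of arrays limits the precision, and the bead standard error of member probes was 1.50% to 8.51% of the signal.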

Additional observations from a re-analysis of the deposited data

Results flagged for a closer look

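Dixon's criterion for a single sample far from the other 3 of its group was passed by 4 of the 28 sets of 4 values (7 probes in 4 groups), and chance flags about 1 set in 20. The bright Reg3b probe was lowest in DSS_WT replicate 2, at 13.76 against 14.51 for the nearest other sample of the group. The dim Reg3b probe was highest in Naive_WT replicate 11, at 7.29 against 5.05 for the nearest. Reg3g was also highest in Naive_WT replicate 11, at 9.13 against 7.00. Reg3g was highest in Naive_KO replicate 13, at 11.69 against 9.65. These sets are not independent, since the dim Reg3b probe and Reg3g moved together. No explanation was tested.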

How the results depend on the processing

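The counts of called members were recomputed under 11 alternatives and 16 fits that left out 1 sample each. The count for DSS_WT against Naive_WT was 5 and stayed at 4 or 5 in all of them (Reg3a fell short of the fold limit without background correction, at 0.63, and Retnlb had an adjusted p of 0.0159 with no filter). DSS_KO against DSS_WT stayed at 0 in all, and so did the interaction wherever it could be fitted, which leaves out the fit on 2 groups. DSS_KO against Naive_KO, with 4 called, had 2 called without background correction (Reg3a below the fold limit at 0.75, Reg4 at an adjusted p of 0.0122), and 2 to 4 when 1 sample was left out. Naive_KO against Naive_WT, with 1 called, had 2 with 18 arrays as separate replicates, 2 with array weights (Reg3g added in both), 3 at a threshold of 0.05 on the adjusted p alone (Reg3g and Retnlb added), 0 when only the groups of the contrast were fitted (the bright Reg3b probe at 0.0362), and 0 to 2 when 1 sample was left out.

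Of 35 member fold changes, 22 kept direction and call throughout and 5 changed sign in some setting, all of them uncalled. The Reg3a interaction of -0.04 was 0.12 without background correction, 0.0193 with scaling to a common median, 0.17 with an offset of 50 and 0.0470 with 18 arrays, and -0.26 to 0.14 when 1 sample was left out. Its Naive_WT level is only an upper bound, so neither size nor sign of this value can be read. The interaction of the dim Reg3b probe, -0.55, was 0.44 without background correction and 0.0278 with an offset of 50, and -1.14 to 0.0404 when 1 sample was left out. The bright Reg3b difference between the DSS groups was -0.0916 with array weights and -0.12 to 0.16 when 1 sample was left out, and that of Ang4 was -1.48 to 0.0708 when 1 sample was left out. Reg4 between the naive groups was -0.42 to 0.00849 when 1 sample was left out. The causes were not tested. Scaling to a common median moved the median of all probes with DSS to 0.24 in WT and 0.23 in Mbd2KO, and every called member kept its direction. No paired analysis was possible because the labels number the samples through, so that the groups share no number. A fit with the chip as a block was not run, since the headers name no chip.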
